A study of Danio rerio with 6 samples.

Results

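Whole zebrafish embryos raised in 1% ethanol were compared with embryos raised in plain water by microRNA (miRNA) microarray at 24 h after fertilisation (hpf). The comparison used 4 of the 6 arrays of the study, replicates R1 and R2 of each group, which the design text calls biological replicates. Embryos of the 1% ethanol group were kept in 20 mL of 1% ethanol in system water, about 200 to a dish, from the blastula stage at 4 hpf. The labels give exposure until 24 hpf, when embryos were collected, but the design text also mentions a change to water before collection, so it is uncertain whether ethanol was present up to collection. Control embryos were kept in 20 mL of system water without ethanol. Before 4 hpf all eggs developed at 28 °C, and only normally developed embryos were taken on. The strain, the number of embryos behind each RNA extract and the ethanol reached inside the embryos are not given in the sources used here. The 2 arrays of embryos raised in 1.5% ethanol entered the normalisation and the estimate of spread. Total RNA of whole embryos was labelled with Cy3, 1 sample to an array, so that fewer cells of a type and less RNA per cell cannot be told apart.

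Members were all probes whose name marks a zebrafish miRNA, 243 of the 1078 named miRNA probes on the array. Among them, 25 had names that begin with ZF_miR, a prefix that the sources used here do not explain, and the others had registered zebrafish names. Each probe was printed as 4 spots, a pair in the upper part of the array and a pair in the lower part. Empty and blank positions of each array gave a limit, their 95th percentile. A probe was taken to be above the empty spots there if its kept spots (those without the software's ignore mark) over that limit were no fewer than those under it. This held on at least 2 of the 4 arrays for 41 probes, and the other 202 form the rest. Names are those of the array's design, and signal from near-identical members of a family cannot be separated on it.

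MiRNAs are short RNAs that pair with messenger RNAs and lower their translation and stability. In the zebrafish embryo the miR-430 family clears maternal messenger RNA when the zygotic genome is switched on, while others appear as tissues form, such as miR-9 in neural progenitors, miR-1 in muscle and miR-203 in the epidermis. Ethanol in this window is known to disturb the growth of the brain, eyes and face, which is the setting of the comparison.

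Whole-embryo RNA was checked by miRNAs that mark tissues. On all 4 arrays, miR-9 (brain), miR-1 (muscle), miR-203a (epidermis), and miR-430b and miR-430j (early zygotic) were above the empty spots. The brain miRNA miR-124 was above them on 1 array, and so was the muscle miRNA miR-133a. None of the arrays had miR-206 (muscle), miR-205 (skin), miR-451 and miR-144 (red blood cells) or miR-122 (liver) above them. Of these, only miR-122 was listed as absent or late at this stage. The tissue check was therefore met only in part, and a reading under the limit is no proof of absence. The limit was 350.25 and 334.8 intensity units on the 1% ethanol arrays and 451.1 and 276.5 on the control arrays (R1 and R2). Above this limit were 35 and 45 zebrafish probes (14.4% and 18.5%) on the 1% ethanol arrays, and 49 and 42 (20.2% and 17.3%) on the control arrays. Probes named only for other species passed it at 16.9% and 18.2% on the 1% ethanol arrays, and at 19.6% and 19.5% on the control arrays, and passing is therefore no proof of expression. Per the headers of the scanner files, R1 of both groups shared a slide, while 1% ethanol R2 and control R2 were each on another slide with a 1.5% ethanol array.

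In embryos raised in 1% ethanol, 1 miRNA fell and 0 rose past the threshold. It was miR-128, known mainly from neurons of the brain. Levels below are normalised log2 intensities, and a difference is the 1% ethanol mean minus the control mean on that log2 scale. Differences were tested with limma over all 243 probes, at a Benjamini-Hochberg adjusted p of 0.05. The call rate was thus 0.412% of the probes, and at an unadjusted p under 0.05 it was 6.17%, or 15 probes. With 2 arrays in each group the smallest two-sided exact p is 0.333, so the p-values rest on the spread that limma pools over probes.

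Among the 41 probes above the empty spots, 22 differences were above 0 and 19 below, with a median of 0.05. Of these, 32 lay within 0.5 of 0 and 24 had a 95% interval within 1 log2 unit of 0 on both sides. The differences of miR-193b, miR-736, miR-128, let-7c and miR-203a reached 1 log2 unit, each of them below 0. Of these, miR-128 and let-7c were above the empty spots only on the control arrays, so the filter favoured a lower value in 1% ethanol. The largest difference above 0 was 0.84, for miR-153a, which was not above the empty spots on control R2. Over all 243 probes, 123 differences were above 0 and 120 below, and the median was 0.00. Quantile normalisation gives the arrays a shared distribution, so this balance was largely set by the processing. The median was -0.12 when scaled to the empty spots and 0.27 in the deposited log2 table.

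Both 1% ethanol arrays lay above both control arrays for 7 of the 41, and below both for 11. Over all 243 probes that was 20.6% higher and 16.9% lower. The 11 lower were miR-128, let-7c, miR-193b, miR-736, miR-218a, miR-23a, miR-132, miR-192, miR-430b, miR-196b and miR-34c. Of these, miR-128, let-7c and miR-192 were among the 41 only through the control arrays. The filter itself thus favoured their direction, and nothing is read from 11 against 7. The 7 higher were miR-9, miR-21, miR-1, miR-146b, miR-461, miR-10a* and miR-181a. In the rest, differences ran from -0.77 to 0.87, 43 of 202 probes were higher on both 1% ethanol arrays and 30 lower, and 0 of 202 passed the threshold.

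**Figure D1:**
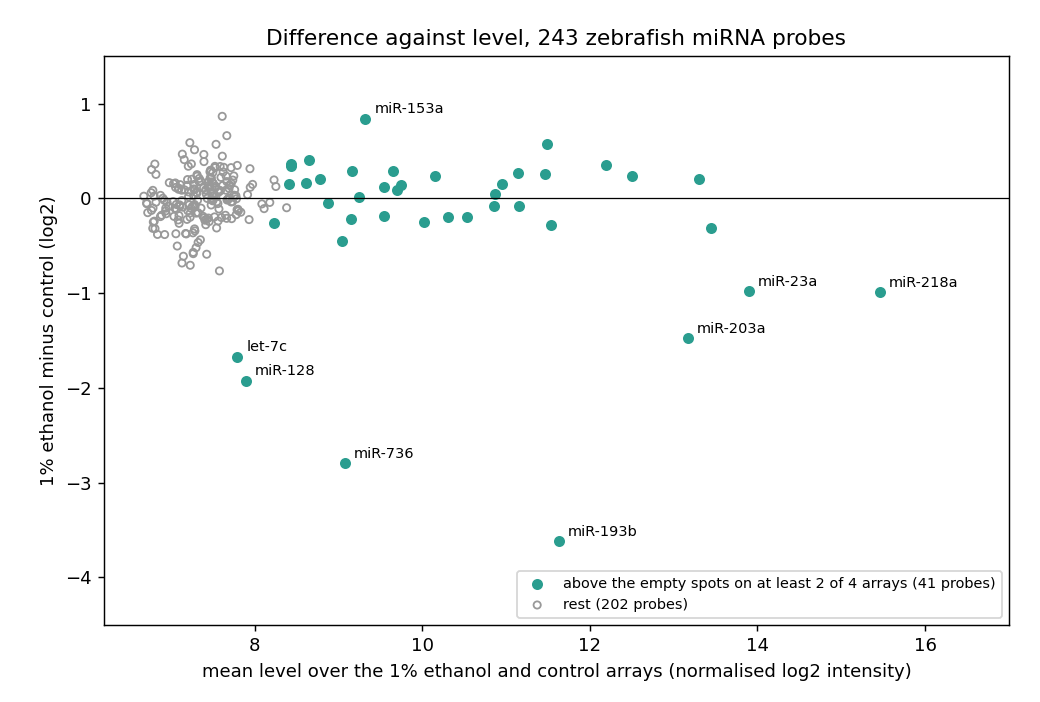
Each point is 1 of 243 zebrafish miRNA probes, placed by its mean level over the 1% ethanol and control arrays (x, normalised log2 intensity) and by the 1% ethanol minus control difference (y, log2). The 41 filled points, above the empty spots on at least 2 of the 4 arrays, run from -3.62 to 0.84, and the 202 open points from -0.77 to 0.87.

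miR-128 was at 6.85 and 7.01 on the 1% ethanol arrays, against 8.92 and 8.79 on the control arrays. The groups did not overlap, and within each group the arrays lay close together. The 4 spots read 92, 104, 156 and 105 on 1% ethanol R1 and 102, 115, 115 and 156 on R2, all under the limit set by the empty spots. On control R1 they read 559, 690, 628 and 578, and on control R2 362, 376, 414 and 383. All 8 control spots were over the limit of their array. The difference was -1.93 (SE 0.20, 95% interval -2.41 to -1.44, limma adjusted p = 0.0152). The SE and interval treat the 1% ethanol readings as measured levels, although these lie near the empty spots (median 104 on R1 and 99 on R2).

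Since neither 1% ethanol array was above the empty spots, the level there is only a bound, and miR-128 stands among the 41 only through the control arrays. The lowest means of any probe above the empty spots on the 1% ethanol arrays were 8.07 and 7.67. Set against this floor, miR-128 was 1.98-fold higher in control. That floor is a convention and no strict limit. On 1% ethanol R1 it came from miR-133a, whose kept spots read 177 and 411. Several probes lay over it there without being above the empty spots, among them miR-193b (8.39), miR-10a* (8.38), miR-92a (8.36) and miR-375 (8.35). So did miR-192 on 1% ethanol R2, at 8.13. Folds set against this floor may thus overstate the bound. Both print copies gave a difference of similar size, -2.08 from the upper copy and -1.77 from the lower. Within the slide shared by both R1 arrays the difference was -2.07. At 1.5% ethanol, measured against the same control arrays, miR-128 was at 8.07 and 7.65. The call ended without control R1 (limma adjusted p = 0.341), control R2 (0.187) or 1% ethanol R1 (0.0746). It ended too from the lower print copy alone (adjusted p = 0.508), and across 26 alternatives it held in 16, with the difference below 0 in all 26.

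**Figure D2:**
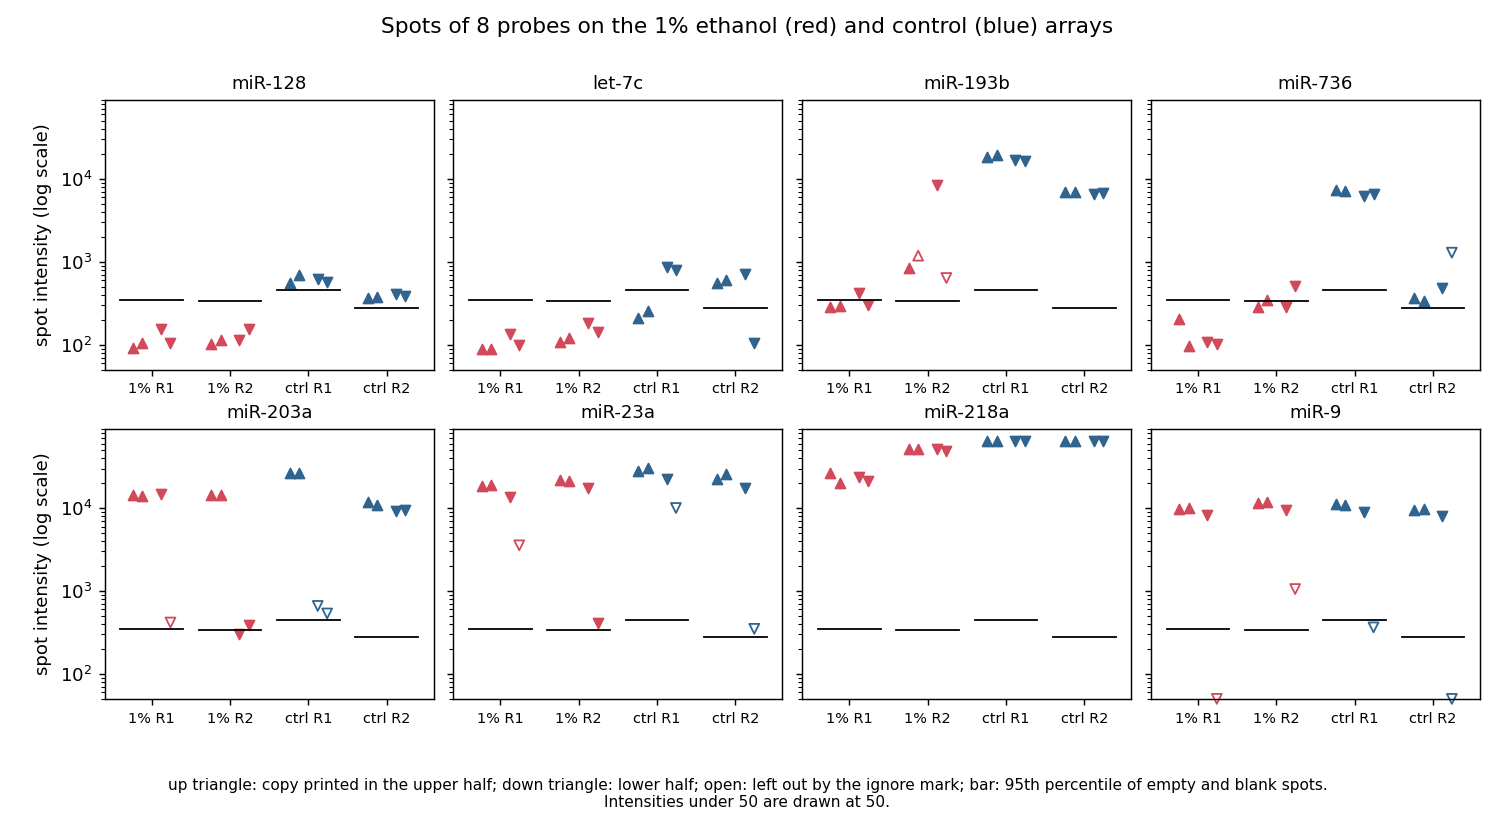
Single spots of 8 probes are plotted as scanned intensity (y, log scale) for 1% ethanol R1 and R2 and control R1 and R2 (x), with upper and lower print copies as up and down triangles, open where the spot carries the ignore mark, and a bar at the 95th percentile of empty and blank spots. All 8 miR-128 spots of 1% ethanol lie between 92 and 156 and all 8 of control between 362 and 690, whereas miR-203a and miR-23a each have kept spots near the bar on 1% ethanol R2.

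Of 21 probes in the neural list, miR-128 was the 1 that passed. Over all 243 probes the call rate was 0.412%, so a count of 0 or 1 calls says little about this or any other list. Both 1% ethanol arrays were higher for 7 of the 21 and lower for 6, beside 20.6% and 16.9% over all probes, and the list median was 0.08, beside 0.00 over all probes. The neural miRNAs above the empty spots, other than miR-128, were miR-9, miR-132, miR-153a, miR-153c, miR-181a and miR-218a. miR-9, which holds the balance between neural progenitors and neurons, was at 13.34 and 13.47 in 1% ethanol and 13.12 and 13.28 in control. The 4 arrays lay close together, with both 1% ethanol arrays on top, and the difference of 0.21 had a 95% interval of -0.22 to 0.63. Scaled to the empty spots it was -0.13, so its direction depended on the scaling.

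miR-132, a miRNA induced by activity in rodent neurons, was at 13.14 and 13.42 in 1% ethanol, against 13.54 and 13.66 in control. The ethanol arrays were the lower ones, with a difference of -0.31 (interval -0.73 to 0.11, limma adjusted p = 0.874). miR-153a was at 9.99 and 9.48 in 1% ethanol and 9.67 and 8.13 in control. Control R2 stood apart: its 4 spots read 230 to 264, against 965 to 1044 on control R1, while those of the ethanol arrays read 899 to 1011 on R1 and 668 to 775 on R2. All 4 control R2 spots lay under the limit of 276.5 set by the empty spots, so that level is only a bound. The difference of 0.84 had an interval of -0.58 to 2.26. Its close relative miR-153c was at 9.62 and 9.85 in 1% ethanol and 9.74 and 9.56 in control, so its groups overlapped, at a difference of 0.08. The miR-153 family is neuronal and acts on synaptic vesicle release in zebrafish. miR-153b was above the empty spots on none of the 4 arrays, and its difference was -0.21.

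miR-218a, which lies in introns of slit genes and is known from motor neurons, was the brightest of the 41. Its spots read 26618, 20161, 23649 and 21181 on 1% ethanol R1 and 51939, 51254, 52292 and 48456 on R2. On control R1 they read 65294 to 65295 and on control R2 65290 to 65291. All 8 control spots were thus saturated, at or over 65000, while none of the ethanol spots was. On the log2 scale the levels were 14.29 and 15.63 in 1% ethanol, against 15.96 and 15.95 in control. As the control spots were saturated, the size of the difference is uncertain. By the group means miR-218a was 1.99-fold higher in control (difference -0.99, interval -1.99 to 0.01, limma adjusted p = 0.755). Most of the gap came from 1% ethanol R1, which read less than 1% ethanol R2 at every spot. The size rested on that array: without 1% ethanol R1 the difference was -0.28, and without 1% ethanol R2 it was -1.64. With every control spot saturated, the SD of the control arrays was 0.006. The spread between control arrays could thus not be measured, and the interval and adjusted p of miR-218a leave it out.

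The let-7 family, known from developmental timing and late differentiation, had 10 probes and 0 calls. Let-7b, let-7c and let-7e were among the 41, and the family median was -0.17. Let-7c was at 6.73 and 7.18 in 1% ethanol, against 8.46 and 8.79 in control. The groups did not overlap, and as with miR-128 only the control arrays had the probe above the empty spots. Its spots, however, disagreed within control: on R1 the lower copy read 877 and 795 while neither upper spot read over 254, and on R2 the spots read 556, 597, 706 and 106. In 1% ethanol they read 89, 90, 136 and 100 on R1 and had a median of 130 on R2. By the same floor, which is no strict limit, let-7c was 1.69-fold higher in control (difference -1.67, SE 0.39, limma adjusted p = 0.498).

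Let-7b was at 10.30 and 10.57 in 1% ethanol and 10.52 and 10.74 in control, with overlapping groups. Let-7e was at 11.97 and 11.58 in 1% ethanol and 10.49 and 11.93 in control. Control R1 was the low array: there the 2 upper spots read 5984 and 5926, the kept lower spot read under 1/4 of these, and the other lower spot carried the ignore mark. From the upper copy alone the let-7e difference was 0.27, and from the lower copy 1.59. The other 7 let-7 probes were above the empty spots on at most 1 array, with differences from -0.34 for let-7a to 0.46 for let-7j. Over the family, both 1% ethanol arrays were higher for 2 probes of the 10 and lower for 2, near the 20.6% and 16.9% over all probes, and let-7c was the only one of these 4 among the 41.

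miR-193b had the lowest fitted difference of the 243 probes, although it was not above the empty spots on 1% ethanol R1, where its level is only a bound. It was at 8.39 and 11.24 in 1% ethanol, against 13.96 and 12.92 in control. Both ethanol arrays lay below both control arrays, but far from each other. The spots read 288, 296, 419 and 299 on 1% ethanol R1, all but 1 of them under the limit of the empty spots. On R2 the kept spots read 831 and 8428, and the other 2, at 1186 and 638, carried the ignore mark. The level of 11.24 on R2 thus averaged 2 kept spots that read far apart, and the ignored spots lay nearer to the lower one. Control spots read 16436 to 19471 on R1 and 6589 to 7045 on R2. The difference was -3.62 (SE 0.89, 95% interval -5.78 to -1.46, limma adjusted p = 0.498). Its size depended on single arrays: it was -2.19 without 1% ethanol R1 (adjusted p = 0.199) and -5.06 without 1% ethanol R2, where it passed the threshold (adjusted p = 0.0106). At 1.5% ethanol, on arrays compared with the same controls, miR-193b was at 13.78 and 13.34.

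The other wide difference was that of miR-736, a miRNA registered in zebrafish. It was at 6.93 and 8.43 in 1% ethanol and 12.16 and 8.78 in control. On 1% ethanol R1 all its spots lay under the limit of 350.25 set by the empty spots, so that level is only a bound. On 1% ethanol R2 its spots lay on both sides of the limit of 334.8. Only control R1 was bright: its spots read 6215 to 7417, against 338 to 478 for the kept spots of control R2, 96 to 207 on 1% ethanol R1 and 282 to 506 on R2. The difference of -2.79 had an interval of -5.39 to -0.19 (limma adjusted p = 0.676), and without control R1 it was -1.08. At 1.5% ethanol miR-736 was at 12.38 and 12.73. The probe ZF_miR_20 also varied widely between the 1% ethanol replicates, at 6.66 and 10.97. In control it was at 9.59 and 8.94, but these levels averaged print copies that disagreed. The gap between copies (upper minus lower, log2) was -4.71 on control R1 and 3.08 on control R2. The ZF_miR_20 difference was -0.45, with an interval of -3.69 to 2.79.

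miR-203a, a miRNA of the epidermis that restrains proliferation of skin progenitors in mouse, was at 13.81 and 11.05 in 1% ethanol and 14.43 and 13.38 in control. The groups overlapped, and 1% ethanol R2 was the low array. On that array the upper copy read 14411 and 14288 and the lower copy 303 and 389. On control R1 the lower copy also read low, at 661 and 536, but there both spots carried the ignore mark and were left out. The difference was -1.48 (interval -3.56 to 0.61, limma adjusted p = 0.874). From the upper copy alone it was -0.11, and with spots under 1/4 of the brightest kept spot left out it was -0.06.

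A low kept spot also entered miR-23a, of the miR-23/27/24 cluster known from blood vessels. The miRNA was at 13.94 and 12.87 in 1% ethanol, against 14.42 and 14.35 in control. Both ethanol arrays lay below both control arrays, with a difference of -0.98 (interval -1.85 to -0.10, limma adjusted p = 0.676). On 1% ethanol R2, 3 spots read 17487 to 21579 and the last kept one 416. The corresponding spot read 350 on control R2, where it carried the ignore mark. The upper copy gave -0.22 and the lower copy -1.68, and leaving the dim spots out gave -0.21. The list of this cluster had 9 probes and 0 calls, and its other member above the empty spots, miR-27c*, was at 11.10 and 11.45 in 1% ethanol and 10.74 and 11.27 in control.

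Low kept spots were not spread evenly over the arrays. Among the 41 probes, 8 of 152 kept spots on 1% ethanol R2 read under 1/4 of the brightest kept spot of the same probe, against 1 of 151 on 1% ethanol R1, 5 of 140 on control R1 and 3 of 154 on control R2. Of the 8 on 1% ethanol R2, 7 lay in the bottom row of print blocks, which held 26 of the kept spots there. They belonged to miR-203a, miR-23a, miR-30e, miR-92b, miR-430b and let-7e. The remaining low spot there was that of miR-193b, at 831 beside a kept spot of 8428. Its ignored spots, at 1186 and 638, lay nearer to the low reading. With such dim spots left out on all arrays the difference turned sign for miR-30e, 0.28 in place of -0.28, and for miR-92b, 0.31 in place of -0.09. It also turned for miR-430b, 0.046 in place of -0.25. The cause of the low spots was not tested.

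Differences from the upper and the lower print copy could both be had for 36 of the 41 miRNAs. They were within 0.5 of each other for 30 and apart by 1 or more for 3, miR-193b, miR-23a and let-7e. They had opposite signs for 3. Within an array the median gap between copies was 0.16, and 15 of 159 gaps reached 1. Gaps of opposite sign on control R1 and R2 (upper minus lower) partly offset each other in the group mean for ZF_miR_20 (-4.71 and 3.08) and let-7c (-1.88 and 1.14). For these, similar differences from both copies do not show that the copies agreed.

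**Figure D3:**
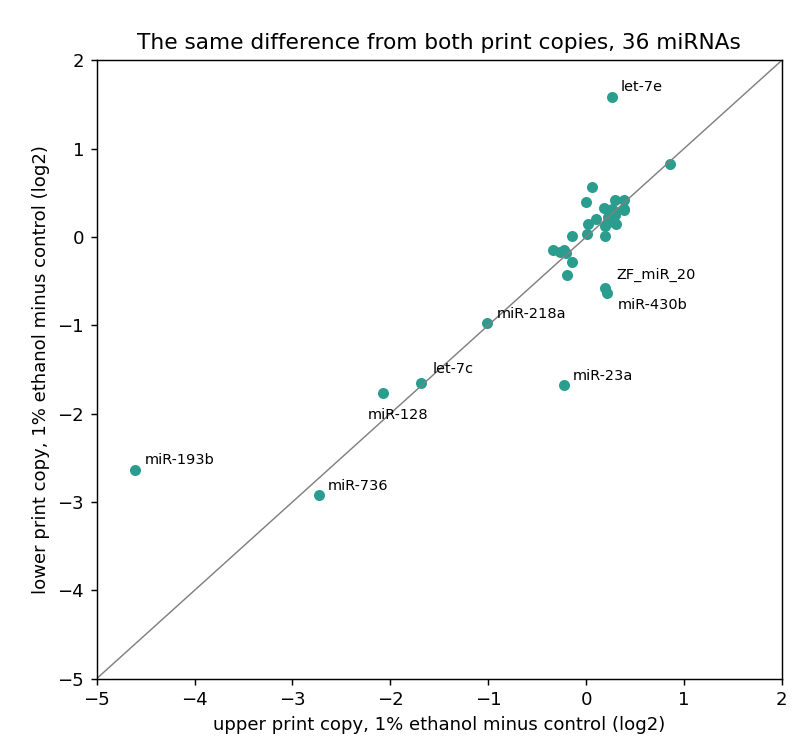
The 1% ethanol minus control difference (log2) of 36 miRNAs is plotted from the upper print copy (x) and from the lower print copy (y), with the line of equality. miR-128 (-2.08 and -1.77), let-7c (-1.68 and -1.66) and miR-218a (-1.01 and -0.98) lie near the line, and miR-193b (-4.60 and -2.64), miR-23a (-0.22 and -1.68) and let-7e (0.27 and 1.59) lie away from it. For let-7c the copies disagreed within control, with gaps of opposite sign on R1 and R2 that partly offset each other. All control spots of miR-218a were saturated, so its copies could hardly differ there.

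The miR-430 family had 5 probes, 0 calls and a median of 0.02. miR-430j was at 10.71 and 10.93 in 1% ethanol and 10.80 and 10.99 in control, so the groups overlapped. The interval of its difference ran from -0.50 to 0.35. miR-430b was at 9.99 and 9.79 in 1% ethanol, against 10.23 and 10.06 in control, with both ethanol arrays lower by a narrow margin. Its difference of -0.25 (interval -0.70 to 0.19) came with a low spot of 359 on 1% ethanol R2, and from the upper copy alone it was 0.22. miR-430a, miR-430c and miR-430i were above the empty spots on none of the 4 arrays.

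Among muscle and heart miRNAs, 0 of 8 passed, with 3 differences above 0, 5 below and a list median of -0.079. miR-1, which promotes muscle differentiation, was at 9.28 and 9.32 in 1% ethanol, against 8.98 and 9.04 in control. Both ethanol arrays were higher, but the difference of 0.29 (interval -0.15 to 0.73, limma adjusted p = 0.874) did not pass. miR-133a, which shares its transcript with miR-1, also had both ethanol arrays higher, at 8.07 and 7.86 against 7.49 and 7.75 in control. Its difference was 0.35, from readings near the level of the empty spots. By contrast, miR-133a* had both ethanol arrays lower (difference -0.28). Differences of miR-133b, miR-133b* and miR-133c were -0.15, -0.32 and -0.22, also from readings near the empty spots. In the blood and immune list, 0 of 10 passed. miR-146b, whose family damps inflammatory signalling in mouse and human, was at 12.30 and 12.43 in 1% ethanol, against 11.79 and 12.22 in control, a difference of 0.36 (interval -0.12 to 0.84). miR-155, which acts in immune cells of mouse, was at 9.49 and 10.13 in 1% ethanol and 9.75 and 9.61 in control, with overlapping groups.

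The ethanol-responsive list was drawn from mouse and rat studies and held probes for miR-9, miR-10, miR-21, miR-153 and miR-155. Of its 13 probes 0 passed, and both 1% ethanol arrays were higher for 5 and lower for 0, beside 20.6% and 16.9% over all probes. The 5 were miR-9, miR-21, miR-10a*, miR-10c and miR-10d, of which miR-10c and miR-10d were above the empty spots on none of the 4 arrays. miR-21, known from cardiac valve formation in zebrafish, was at 11.02 and 11.04 in 1% ethanol, against 10.89 and 10.85 in control. The 4 arrays lay close together, and the interval of the 0.16 difference ran from -0.25 to 0.56. Scaled to the empty spots the miR-21 difference was -0.12. miR-10a* was at 8.38 and 8.60 in 1% ethanol and 8.34 and 8.34 in control, and was above the empty spots on 1 array of each group.

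Further lists are given by their members above the empty spots. In the Hox cluster list, 0 of 8 passed, and miR-196b, which targets Hox messenger RNAs, was at 10.20 and 10.21 in 1% ethanol, against 10.45 and 10.35 in control (difference -0.19, interval -0.69 to 0.30). In the miR-17-92 and related clusters, which promote proliferation, 0 of 20 passed. There miR-19a was at 12.45 and 12.78 in 1% ethanol and 12.23 and 12.54 in control, and miR-92b at 11.46 and 10.75 in 1% ethanol and 11.18 and 11.20 in control. Both pairs of groups overlapped. In the gut, liver and pancreas list, 0 of 8 passed. Its miR-192, a miRNA of gut and liver, was at 8.07 and 8.13 in 1% ethanol, against 8.38 and 8.34 in control, and was above the empty spots only on the control arrays. The miR-192 difference of -0.26 had an interval of -0.78 to 0.26, and in the deposited log2 table its sign turned, at 0.051.

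In the p53 and cell cycle list, 0 of 10 passed. miR-34c, of a family induced by p53 in mammals, was at 9.37 and 9.53 in 1% ethanol and 9.74 and 9.54 in control, and miR-16c at 8.86 and 8.84 in 1% ethanol and 8.99 and 8.80 in control. In the cartilage and mesenchyme list, 0 of 7 passed, and miR-199* was at 8.29 and 8.91 in 1% ethanol and 8.38 and 8.14 in control. A kept miR-199* spot that read 0 entered the level on 1% ethanol R1 and on control R2. The upper copy exceeded the lower there by 1.30 and 1.18. In the miR-125/100/99 clusters 0 of 5 passed, and miR-100 was at 9.07 and 8.63 in 1% ethanol and 8.90 and 8.0 in control. In the miR-30 family 0 of 6 passed, and miR-30e was at 11.76 and 11.04 in 1% ethanol and 11.76 and 11.60 in control. The epithelial and skin list had 0 of 9 past the threshold, with miR-203a above the empty spots. The sensory list (0 of 5), the endothelial list (0 of 4) and the miR-29 family (0 of 2) held no member among the 41, so their differences, from -0.26 to 0.22, come from probes near the empty spots.

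Of the 41, 10 stood in none of the lists, among them miR-726, miR-22a and miR-461. miR-726 was at 12.11 and 11.08 in 1% ethanol and 12.53 and 10.15 in control, so each group held a bright R1 array and a dimmer R2 array. The difference of 0.26 had an interval of -1.82 to 2.34. miR-22a followed the same order, at 10.05 and 9.55 in 1% ethanol and 10.05 and 8.97 in control. miR-461 was at 8.59 and 8.64 in 1% ethanol, against 8.17 and 8.34 in control, with a difference of 0.36 (interval -0.12 to 0.83). Its spots on control R1 read 348 to 383, all under the limit of 451.1 set by the empty spots, so that level is only a bound. The 7 of the 41 whose levels are not given above, miR-724, miR-737, miR-220, miR-202, miR-18a, miR-18b* and miR-181a, had differences from -0.21 to 0.24. Of these, miR-18a, miR-18b* and miR-181a stood in lists.

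**Figure D4:**
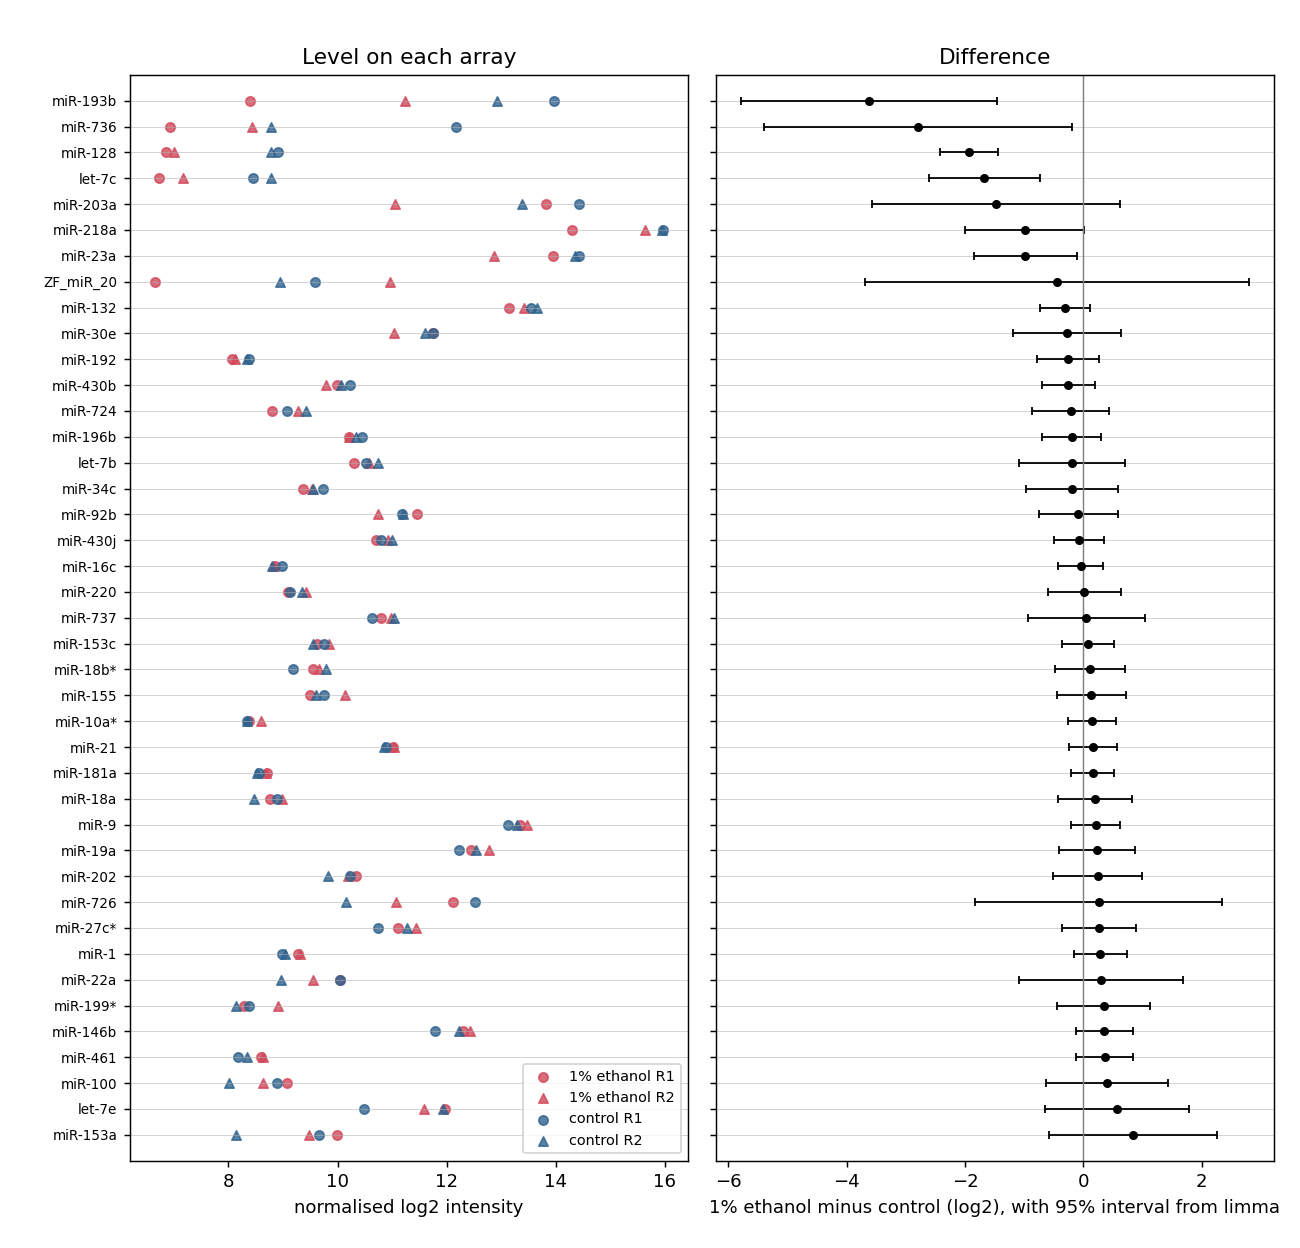
The 41 miRNAs above the empty spots are listed from the most negative to the most positive difference, with the level on each 1% ethanol and control array (left, normalised log2 intensity) and the difference with its 95% interval from limma (right, log2). Intervals of 24 miRNAs lie within 1 log2 unit of 0, and those of ZF_miR_20, miR-736, miR-193b, miR-726 and miR-203a are the widest.

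miRNA genes that stand together are often copied from a shared transcript, so the neighbours of the 41 were looked up in the RefSeq annotation of assembly GRCz12tu, by name only. For 38 of the 41 a miRNA gene was found, and 4 had a neighbour within 10 kb that was also among the 41. These were miR-18a and miR-19a, at differences of 0.20 and 0.23, and miR-23a and miR-27c*, at -0.98 and 0.27. miR-128 matched 3 genes, and none had another miRNA gene within 10 kb. miR-193b stood next to miR-365, whose difference was -0.02, and let-7c next to miR-99 (-0.38) and miR-125c (0.18). These 3 neighbours were above the empty spots on none of the 4 arrays, so their differences set no bound on the neighbours' change.

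Probes above the empty spots were also counted by group. The control arrays alone had both replicates above the empty spots for 3 miRNAs, miR-128, let-7c and miR-192, and the 1% ethanol arrays alone for 0. Both 1% ethanol arrays and 1 control array were above for 4, miR-153a, miR-100, miR-199* and miR-461. Both control arrays and 1 of the 1% ethanol arrays were above for 3, miR-193b, miR-736 and ZF_miR_20. On all 4 arrays 30 miRNAs were above, and on none 180. The 22 above on 1 array were 14 on a control array and 8 on a 1% ethanol array. Over the 41 probes, the 1% ethanol arrays correlated with each other at r = 0.86 and the control arrays at 0.91, while pairs across the groups had r from 0.76 to 0.91. These are correlations across probes of the same printed design, and probes are not independent replicates.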

How the data were processed

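Scanner files of 6 arrays were analysed. Per the file headers, the deposited spot values are foreground and local background intensity in 1 channel, raw, with a mark for spots to ignore. The value table of the authors holds log2 values and served as an alternative. Of 1440 of its values that were compared, 1438 could be rebuilt to within 0.001 from the intensities relative to the Ncode_Control spots. The largest mismatch was 0.137. The scanner settings are not given in the sources used here.

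Intensities were background-corrected by normexp (offset 50), set on a log2 scale, freed of ignored spots (4.64% to 11.7% of the spots of the 4 arrays), quantile normalised over miRNA spots, and averaged over the spots of a probe. limma 3.58.1 in R 4.3.3 fitted 3 group means to 6 arrays (3 residual and 3.15 prior degrees of freedom) and adjusted p over 243 probes. The number of arrays limits precision: the median SE was 0.211 on the log2 scale. The fit was also run on simulated data of independent normal values. These held no slide effect, saturation or dim spots, so that run gives no support to single calls here.

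Named miRNAs were those past the threshold, the 10 largest and 10 smallest differences among the 41 probes above the empty spots, the 2 brightest members of each of 18 lists, and the miR-430, let-7, miR-9, miR-153, miR-21 and miR-128 probes; others are named after their values were seen. The members and lists were chosen with earlier results of these data known. Lists go by miRNA number, and some miRNAs stand in several. Alternatives covered background correction, normalisation, spots, slide, replicate number and single arrays left out.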

Additional observations from a re-analysis of the deposited data

How the results depend on the processing

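The call of miR-128 held in 16 of 26 alternatives and the difference stayed below 0 in all 26, from -2.31 to -1.59, with limma adjusted p from 0.00275 to 0.508. Of the alternatives, those by print copy, print block, array position and dim spots, and both combined with the limit to the 41 probes, were chosen after seeing the data. The number of miRNAs past the threshold was 3 under Ncode_Control scaling and with slide as a block, where miR-193b and miR-736 passed beside miR-128 with a shared SE of 0.48 and 0.43, so these p-values do not use each probe's own spread. It was 2 from the upper print copy, with miR-193b added. It was 0, with 0 list members past the threshold, under no normalisation (miR-128 adjusted p = 0.0531), the median over spots (0.174), the deposited log2 table (0.0866), the lower print copy (0.508), dim spots left out (0.128), and on the 41 probes with slide as a block (0.131) or the replicate block (0.0686). With each array left out, the number ran from 0 to 3 and that of list members from 0 to 2. It was 3 without 1% ethanol R2 (miR-128, miR-193b and miR-218a) and 0 without any of the other 3 arrays. For miR-218a the fit without 1% ethanol R2 held no measured control spread, since every control spot was saturated. With the replicate number as a block, miR-128 was at -1.93 (limma adjusted p = 0.0267) and the count stayed at 1. The deviations of R1 and R2 correlated at -0.03 between 1% ethanol and control over all 243 probes. Most of these lay near the empty spots, so nothing is read from this about the slide that both R1 arrays shared. The median over all probes was -0.12 when scaled to the empty spots and 0.27 in the deposited table, and signs of small differences moved with it. At 99% in place of 95% for the empty spots, 29 probes in place of 41 passed.

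Of 34 named miRNAs among the 41, 13 kept their sign throughout. Scaled to the empty spots, sign turned for miR-9 (-0.13), miR-10a* (-0.081), miR-153c (-0.15), miR-155 (-0.071), miR-19a (-0.12), miR-21 (-0.12), miR-27c* (-0.071) and miR-726 (-0.064). In the deposited table it turned for let-7b (0.11), miR-16c (0.33), miR-192 (0.051), miR-196b (0.13), miR-34c (0.18), miR-430b (0.16), miR-430j (0.21) and miR-92b (0.12). With ignored spots kept it turned for let-7b (0.46), miR-153c (-0.021), miR-155 (-0.13), miR-21 (-0.043), miR-30e (0.29) and miR-92b (0.34). With the median over spots these were miR-16c (0.055), miR-30e (0.23), miR-430b (0.084) and miR-92b (0.31). With dim spots left out they were miR-30e (0.28), miR-430b (0.046) and miR-92b (0.31). From the upper print copy they were ZF_miR_20 (0.19), miR-16c (0.035), miR-30e (0.34), miR-430b (0.22) and miR-92b (0.32), and from the lower miR-430j (0.0086). With print blocks set to 1 median they were miR-153c (-0.030), miR-19a (-0.088), miR-21 (-0.073) and miR-27c* (-0.027). With slide as a block, on all probes or the 41, they were miR-153c (-0.058) and miR-155 (-0.037), and without background subtraction miR-16c (0.013). With each array left out, differences ran from -2.66 to 1.71 for ZF_miR_20, from -0.19 to 0.032 for miR-430j, from -0.94 to 1.41 for miR-726 and from -0.029 to 0.21 for miR-153c. The same ranges were -0.18 to 0.46 for miR-155, -0.65 to 0.076 for miR-30e, -0.44 to 0.28 for miR-92b and -0.15 to 1.29 for let-7e. They were -0.13 to 0.045 for miR-16c, -0.046 to 0.85 for miR-100 and -0.25 to 0.83 for miR-22a. The cause of these turns was not tested. For the 202 probes near the empty spots a fall could not be measured at these signals.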
